A study of Mus musculus with 62 samples.

Results

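Cultured pancreatic tumour cells in which transcript of Epcam was found were set against cells of the same culture in which it was not. The line, KPC1199-EGFP, is a pancreatic cancer line of the mouse with a C57BL\6 background and EGFP expression, grown untreated and adherent in DMEM with 10% fetal bovine serum to passage 9. All 62 libraries, each from 1 cell caught on a Fluidigm C1 chip, come from that 1 culture, so both groups share line, medium, passage and chip. Whether the line is 1 clone is not given in the sources used here. Libraries in which synthetic ERCC spike-in RNA took 20% of counts or more were left out (12 of 62), and the other 50 were split at 1 CPM of Epcam, CPM being counts scaled to the same total over gene rows in every library. The split gave 17 Epcam-expressing cells and 33 Epcam-negative cells. The expressing share was 34% of 50 cells, with an exact Clopper-Pearson 95% interval of 21.2% to 48.8% that covers the sampling of cells only.

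Cells of 1 culture are not replicates of a condition. No p-value was therefore computed, and every difference below describes these 50 cells. Errors are SDs over cells.

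EpCAM is a membrane glycoprotein of epithelial cells that mediates homophilic contact between them. It associates with claudin-7 and tetraspanins in the membrane, and after shedding by ADAM proteases and cleavage by gamma-secretase its intracellular domain can enter the nucleus with FHL2 and beta-catenin. In carcinomas it is widely used to sort tumour cells, and epithelial-mesenchymal transition is known to lower it. The study's design text names EpCAM among the antibodies used to sort tumour cells grown from this line in mice.

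The expressing group is defined by its Epcam level, which is given as a description. In the 17 cells Epcam ran from 4.54 to 1016 CPM with a median of 73.7 CPM, and its estimated counts ran from 21 to 9167 with a median of 576. Cell 17 stood highest at 1016 CPM, followed by cell 30 at 302, cell 47 at 225, cell 32 at 203, cell 35 at 139 and cell 46 at 118 CPM. The next 10 cells lay between 21.8 and 99.7 CPM. The lowest cell inside the threshold, cell 26, had 4.54 CPM from 21 counts. The cell just outside it, cell 45, had 0.732 CPM from 5 counts, and the other 32 negative cells had no Epcam count at all. A count of 0 allows up to 3 counts, which in those 32 libraries corresponds to 0.233 to 1.39 CPM. Apart from cells 26 and 45, the groups were separated by a gap from 0 to 21.8 CPM.

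Depth was alike in both groups. Gene counts had a median of 7261410 in expressing cells and 7127900 in negative cells, and genes above 0 had a median of 9029 in expressing cells and 8814 in negative cells. Gene counts per spike-in count, which follow the RNA recovered from a cell, had a median of 129 (53.6 to 460) in expressing cells and 160 (60.2 to 524) in negative cells. The 8 blocks of 12 chip numbers held 1 to 4 expressing cells and 3 to 6 negative cells each. Every one of the 50 cells had at least 1 CPM of Krt8, Krt18 and Krt19, the keratins of simple epithelium. Of 12 immune marker rows 8 were at 0 in all 50 cells, as were 6 of 9 endothelial rows, 6 of 10 fibroblast rows, 5 of 8 acinar rows and 2 of 4 islet rows. Ptprc, the pan-leukocyte gene, reached 1 CPM in 1 expressing cell and no negative cell.

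**Figure D1:**
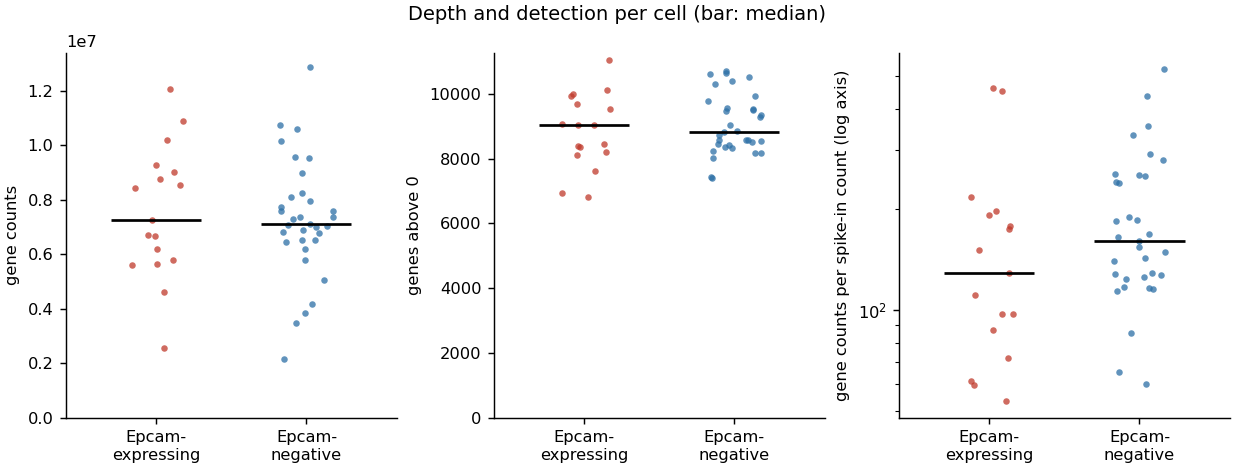
Gene counts, genes above 0 and gene counts per spike-in count (log axis) in each of the 17 Epcam-expressing cells (left, red) and 33 Epcam-negative cells (right, blue), with the median as a bar. The groups overlap over nearly their whole range in all 3 panels, with a lower median of gene counts per spike-in count in expressing cells (129) than in negative cells (160).

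The promoter of Epcam and those of 2 genes that were higher beside it are shown because they were searched for CACCTG, an E-box sequence bound by zinc-finger repressors of the Snail and Zeb families and by basic helix-loop-helix factors. Cldn7 encodes the claudin that binds EpCAM, and Spint1 a Kunitz-type inhibitor of the protease matriptase, which cleaves EpCAM. Sequences are the 250 bases before the start from RefSeq (GRCm38.p6), 5′ to 3′, with CACCTG or its reverse complement CAGGTG in capitals. Epcam is at chr17:87635729-87635978 on the plus strand. Cldn7 has 2 entries, at chr11:69964529-69964778 and chr11:69965171-69965420, and Spint1 is at chr2:119237110-119237359, all on the plus strand.
Epcam: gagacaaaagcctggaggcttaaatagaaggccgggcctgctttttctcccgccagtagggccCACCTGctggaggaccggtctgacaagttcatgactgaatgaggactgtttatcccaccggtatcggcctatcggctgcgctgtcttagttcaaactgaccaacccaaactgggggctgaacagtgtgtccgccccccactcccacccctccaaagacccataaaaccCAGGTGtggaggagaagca
Cldn7, upstream entry: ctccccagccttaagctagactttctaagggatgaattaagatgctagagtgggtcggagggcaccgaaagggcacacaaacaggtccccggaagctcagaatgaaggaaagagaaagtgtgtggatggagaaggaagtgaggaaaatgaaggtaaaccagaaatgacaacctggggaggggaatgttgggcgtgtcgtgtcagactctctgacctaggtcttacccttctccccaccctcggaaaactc
Cldn7, downstream entry: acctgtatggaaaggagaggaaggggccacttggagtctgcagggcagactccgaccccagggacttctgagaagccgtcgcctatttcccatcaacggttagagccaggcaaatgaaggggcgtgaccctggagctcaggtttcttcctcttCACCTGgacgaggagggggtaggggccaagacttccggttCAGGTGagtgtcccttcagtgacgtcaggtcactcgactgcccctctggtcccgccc
Spint1: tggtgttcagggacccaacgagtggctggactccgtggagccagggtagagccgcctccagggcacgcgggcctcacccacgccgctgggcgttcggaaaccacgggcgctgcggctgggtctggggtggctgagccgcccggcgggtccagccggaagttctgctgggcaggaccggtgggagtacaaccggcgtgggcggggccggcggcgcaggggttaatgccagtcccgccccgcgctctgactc
Counted from the start, the letters begin at -187 and -19 in Epcam, and at -97 and -57 in the downstream Cldn7 entry. The upstream Cldn7 entry and the Spint1 window do not hold them. On either strand they occur in the windows of 1416 of 8190 genes kept in the comparison (17.3%). Among the 15 genes most higher in expressing cells 3 of the 11 with an entry held them, and among the 15 most lower 5 of 11. A match of letters is not a shown binding site.

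Across the transcriptome, 10568 genes had at least 1 CPM in 10 or more of the 50 cells. A gene seen in expressing cells alone would have needed 10 of the 17 to enter, against 10 of 33 for one seen in negative cells alone. For each gene the difference is the mean log2(CPM + 1) over expressing cells minus that over negative cells. It was +1 or more for 480 genes (4.54%) and -1 or less for 901 genes (8.53%), with a median of -0.05 and quartiles of -0.47 and 0.31. Of the genes past 1 in either direction 34.8% were higher. That share was 45.7% with the number of detected genes as a term in the fit, 58.8% with gene counts per spike-in count as a term (750 genes higher and 525 lower) and 90.5% over all 62 libraries (1969 higher and 207 lower), so the balance of the counts changed with those terms and with the libraries included. With size factors in place of total counts it was 32%. Relative to the main median, that of all genes was shifted by 0.11 in the fit with the spike-in term and by 0.45 over all 62 libraries.

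**Figure D2:**
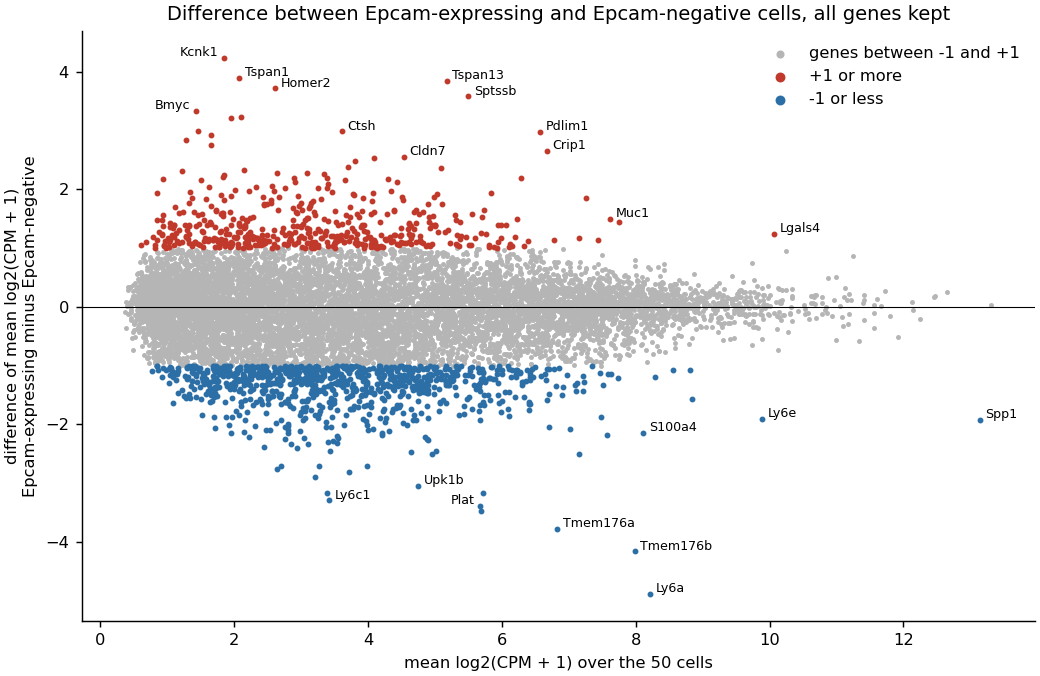
Difference of mean log2(CPM + 1), Epcam-expressing minus Epcam-negative, against the mean log2(CPM + 1) over the 50 cells for the 10568 genes kept. Red points are the 480 genes at +1 or more and blue points the 901 at -1 or less, and the ends run from 4.24 for Kcnk1 to -4.89 for Ly6a.

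The genes most higher in Epcam-expressing cells were mostly ones found in a majority of those cells and in few negative cells. Kcnk1, a potassium leak channel, had a median of 66.7 CPM (0 to 222) in expressing cells, against 0 CPM (0 to 35) in negative cells. It reached 1 CPM in 12 of 17 expressing cells (70.6%, exact 95% interval 44% to 89.7%), against 2 of 33 negative cells (6.06%, 0.743% to 20.2%). On the log2 scale its mean was 4.64 ± 3.12 in expressing cells and 0.40 ± 1.22 in negative cells, a difference of 4.24. The 5 expressing cells without it lay at the level of nearly all negative cells, so the groups overlapped at 0.

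Tspan1 and Tspan13, both tetraspanins, came next among surface genes. Tspan1 had a median of 44 CPM (0 to 396) in expressing cells and 0 CPM (0 to 70.3) in negative cells, with 12 of 17 expressing against 6 of 33 negative cells at 1 CPM and a difference of 3.91. Tspan13 had a median of 376 CPM (0 to 791) in expressing cells and 18.4 CPM (0 to 950) in negative cells, and its difference was 3.84. Tspan13 reached 1 CPM in 16 of 17 expressing cells, yet a negative cell held its highest value.

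Bmyc, a rodent relative of Myc that lacks its DNA-binding region, had a median of 24.7 CPM (0 to 184) in expressing cells and 0 CPM (0 to 9.87) in negative cells. It was at 1 CPM or more in 12 of 17 expressing cells, against 4 of 33 negative cells, and differed by 3.33. Cd55, the decay-accelerating factor that limits complement on cell surfaces, reached 1 CPM in 10 of 17 expressing cells, against 3 of 33 negative cells, with a difference of 3.0. Fam213b, a prostaglandin F synthase, did so in 11 of 17 expressing and 3 of 33 negative cells, and differed by 2.83.

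A second kind of gene was present in every expressing cell and in most negative ones. Pdlim1, an actin-associated PDZ-LIM protein, had a median of 416 CPM (82.4 to 1155) in expressing cells and 86.8 CPM (0 to 474) in negative cells, a difference of 2.99. Crip1, a small LIM protein, had a median of 413 CPM (57.2 to 1404) in expressing cells and 90.3 CPM (0 to 356) in negative cells, a difference of 2.65. Sptssb, a small subunit of serine palmitoyltransferase, had a median of 238 CPM (21.6 to 2331) in expressing cells and 35.8 CPM (0 to 472) in negative cells, a difference of 3.59. In Pdlim1 the expressing cell was the higher one in 88.2% of all pairs of an expressing and a negative cell, the largest such share among the 15 genes at this end. The other members of the 15 were Homer2, a scaffold protein (3.72), Spint1 (3.24), Prr15l (3.21), Ctsh, the lysosomal protease cathepsin H (2.99), Phgr1 (2.92) and Clic6, a chloride channel protein (2.76).

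At the other end, the genes most lower in Epcam-expressing cells were present in most or all negative cells. Ly6a, the GPI-anchored surface protein also called Sca-1, had a median of 41.7 CPM (0 to 2418) in expressing cells, against 1292 CPM (0 to 3807) in negative cells. It was at 1 CPM or more in 11 of 17 expressing cells and 32 of 33 negative cells. Its log2 mean was 4.99 ± 4.24 in expressing cells and 9.88 ± 2.25 in negative cells, a difference of -4.89. Expressing cells 44 and 28 had 2418 and 1981 CPM of Ly6a, above the median of negative cells, so the groups overlapped. Its counts were not whole in 81.4% of the cells where it was above 0, as happens when kallisto divides reads between similar transcripts, and Ly6c1, its relative, was never whole. Ly6c1 differed by -3.30 with 3 of 17 expressing and 22 of 33 negative cells at 1 CPM, and how reads were shared between these relatives cannot be seen from the table.

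Tmem176b and Tmem176a, neighbouring genes for membrane proteins of the MS4A kind, were present in every negative cell. Tmem176b had a median of 233 CPM (0 to 1158) in expressing cells, against 665 CPM (301 to 1562) in negative cells, and log2 means of 5.23 ± 4.52 in expressing cells and 9.40 ± 0.57 in negative cells. Only 10 of 17 expressing cells held it at 1 CPM (58.8%, exact 95% interval 32.9% to 81.6%), against 33 of 33 negative cells (100%, 89.4% to 100%). Tmem176a was at 1 CPM in the same 10 expressing cells, and its difference was -3.79, against -4.17 for Tmem176b. Both genes had mostly counts that were not whole (95.5% of cells with Tmem176b and 77.3% with Tmem176a), so their readings may share reads.

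Genes for secreted and matrix-modifying proteins were also at this end. Plat, tissue plasminogen activator, had a median of 8.86 CPM (0 to 506) in expressing cells, against 307 CPM (0 to 1413) in negative cells, a difference of -3.40. Bmp4, a secreted growth factor, had a median of 0.234 CPM (0 to 64.6) in expressing cells, against 53.7 CPM (0 to 222) in negative cells, a difference of -2.80. Adamts1, a secreted metalloprotease, reached 1 CPM in 4 of 17 expressing and 21 of 33 negative cells (-2.75), and Ecm1, an extracellular matrix protein, in 6 of 17 expressing and 28 of 33 negative cells (-2.71). Upk1b, a uroplakin and tetraspanin, had a median of 0 CPM (0 to 527) in expressing cells and 172 CPM (0 to 1906) in negative cells, a difference of -3.04. The other members of the 15 lowest were 8430408G22Rik (-3.48), B4galt4, a galactosyltransferase (-3.17), Mgst1, a microsomal glutathione transferase (-3.16), Rnf130, a RING finger protein (-2.91), Twist2 (-2.71) and Lrif1 (-2.71).

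None of these 30 genes came under a difference of 1, or moved by more than 1.5 times, when any 1 of the 50 cells was left out. They were picked as the largest differences in these same cells, so leaving out 1 cell could hardly bring them under 1. For the same reason the intervals of shares printed for any of these 30 genes are no test between the groups. Without 1 cell, Kcnk1 ranged from 4.04 to 4.53, Ly6a from -5.28 to -4.58 and Tmem176b from -4.47 to -3.84.

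**Figure D3:**
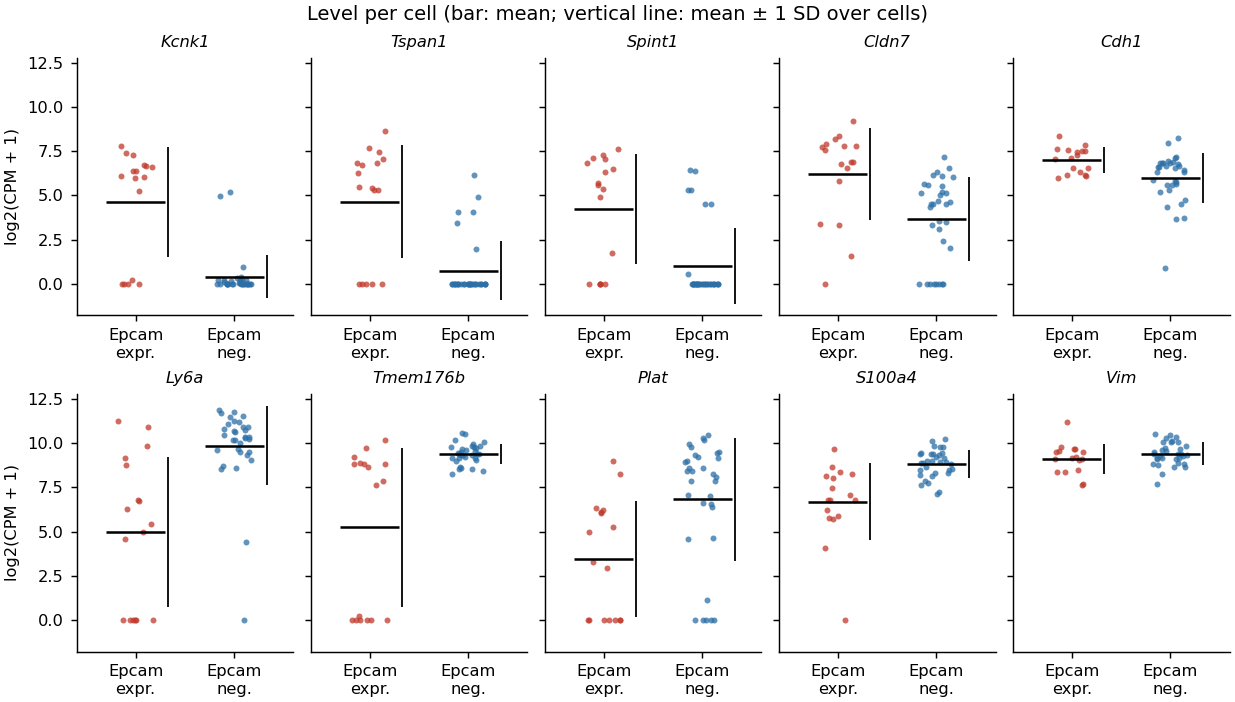
Level of 10 genes as log2(CPM + 1) in each Epcam-expressing cell (left in each panel, red) and each Epcam-negative cell (right, blue). The horizontal bar is the mean and the vertical line 1 SD to each side. For Kcnk1, Tspan1, Spint1, Ly6a, Tmem176b and Plat some expressing cells were at 0 and others far above it. No negative cell was at 0 for Tmem176b (301 to 1562 CPM), and Plat also had values between, such as 6.61 CPM in cell 1.

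The 17 expressing cells were not alike. Tmem176b was under 1 CPM in 7 of the 17, and these included all 5 cells of highest Epcam (17, 30, 47, 32 and 35) together with cells 41 and 37. Their Epcam ran from 31.3 to 1016 CPM, against 4.54 to 118 CPM in the 10 expressing cells with Tmem176b. All 7 had Kcnk1 (36.6 to 222 CPM) and Bmyc (1.6 to 77.7 CPM), whereas 5 of the 10 had each of them.

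None of those 7 cells reached 1 CPM of Upk1b, against 7 of the 10 expressing cells that held Tmem176b. Ly6a was between 0 and 108 CPM in the 7, and between 0 and 2418 CPM in the 10. Of the 15 genes most lower in expressing cells, the 7 cells held 0 to 4 at 1 CPM, and the 10 held 4 to 14. Of the 15 genes most higher, the 7 held 11 to 15, and the 10 held 4 to 15. Tmem176b and Tmem176a are themselves among the 15 lower genes and Kcnk1 and Bmyc among the 15 higher ones, so these counts restate in part how the genes were picked.

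At the other extreme, expressing cells 28, 55 and 26 had 1 CPM or more of only 6, 4 and 8 of the 15 higher genes, with 13, 9 and 14 of the 15 lower genes. The negative cells held 1 to 12 of the higher genes with a median of 5, and 4 to 15 of the lower genes with a median of 13, so these 3 cells lay inside the range of negative cells on both counts. In all, 8 of the 17 expressing cells did so, the others being cells 1, 5, 14, 22 and 44, and all 8 held Tmem176b. Depth overlapped between the 7 cells and the 10. Genes above 0 numbered 6832 to 9524 in the 7 and 7612 to 11068 in the 10, and gene counts per spike-in count ran from 59.9 to 178 in the 7 and from 53.6 to 460 in the 10. The part of these values in the pattern was not tested.

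**Figure D4:**
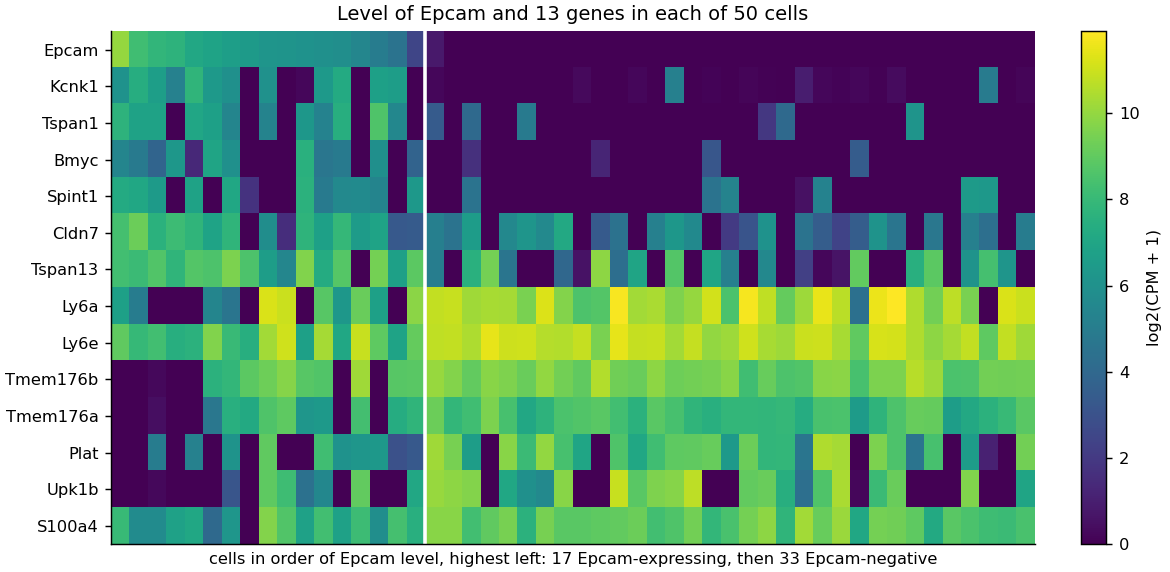
Level of Epcam and 13 other genes as log2(CPM + 1), colour from 0 (dark) upward, in each of the 50 cells in order of Epcam level, with the 17 Epcam-expressing cells left of the white line and the 33 Epcam-negative cells right of it. The cells of highest Epcam are dark for Tmem176b, Tmem176a and Upk1b and bright for Kcnk1, and the 33 negative cells are all bright for Tmem176b and Tmem176a.

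Kcnk1 and Tspan1 were found together in 11 of the 17 expressing cells and in none of the 33 negative ones, although 2 negative cells had Kcnk1 alone and 6 had Tspan1 alone. Spint1 and Cldn7 were found together in 11 expressing and 5 negative cells. Kcnk1, Tspan1 and Spint1 are among the 15 genes picked for their difference between these same cells. These counts therefore restate in part how the genes were picked. Ranked by Spearman correlation with Epcam over the 50 cells, of which 32 are tied at 0, the most similar genes were Bmyc (rho 0.66), Tspan1 (0.65), Fam213b (0.64), Pdlim1 (0.62) and Cd55 (0.60). The most opposite were Ly6e (-0.59), S100a4 (-0.59), Ly6a (-0.55), Fscn1, an actin-bundling protein (-0.55), and Tmem176b (-0.55). Without the 2 cells of Epcam farthest from the median these became 0.61, 0.59, 0.58, 0.56 and 0.64 for the first 5 genes in that order. Within the 17 expressing cells alone the values were lower, at 0.31 for Bmyc, 0.27 for Tspan1 and 0.11 for Cd55, and 0.58 for Fam213b. All cells share the culture and the chip, and rho is given as a description.

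Among genes listed for the EpCAM complex and its cleavage, Cldn7 differed most after Spint1, the gene of the matriptase inhibitor. Cldn7 had a median of 118 CPM (0 to 596) in expressing cells, against 21.8 CPM (0 to 144) in negative cells, and was at 1 CPM or more in 16 of 17 expressing cells and 25 of 33 negative cells. Its mean was 6.22 ± 2.60 in expressing cells and 3.66 ± 2.39 in negative cells, a difference of 2.56. Spint1 had a median of 47 CPM (0 to 199) in expressing cells and 0 CPM (0 to 87.5) in negative cells. Within the 17 expressing cells, Cldn7 followed Epcam with a rho of 0.60 and Spint1 with one of 0.27.

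Cdh1, E-cadherin, was found in nearly every cell, with a median of 137 CPM (62.3 to 334) in expressing cells and 85.4 CPM (0.865 to 300) in negative cells. Its difference of 1.04 was at the limit, and it lay under 1 when any of cells 6, 19, 37, 41, 45, 48 or 59 was left out (0.89 without cell 59). Spint2, the second Kunitz inhibitor, had medians of 368 CPM (148 to 721) in expressing cells and 203 CPM (48.2 to 532) in negative cells, a difference of 0.81. The expressing cell was the higher one in 80.9% of pairs for Spint2, close to the 80.7% for Cldn7.

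The other surface partners did not follow Epcam by much. Tspan8, a tetraspanin found in complex with EpCAM and claudin-7, had a median of 1004 CPM in expressing cells and 611 CPM in negative cells (0.53). Cd9 had medians of 1014 CPM in expressing cells and 999 CPM in negative cells (-0.01), and Cd44 of 128 CPM in expressing and 154 CPM in negative cells (-0.17). Both tetraspanins and Cd44 were at 1 CPM or more in all 50 cells. Cldn1 and St14, which encodes matriptase, were at 0 counts in all 50.

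The genes of EpCAM cleavage and signalling were close to level between the groups. Adam10, a shedding protease, had a median of 36.5 CPM (0 to 174) in expressing cells and 62 CPM (0 to 365) in negative cells. Its difference was -1.05, and it came to -0.78 without cell 17, 41 or 47, and also stayed short of -1 without cell 6, 10, 12, 18, 35, 46, 52 or 55. Adam17 differed by -0.15 and Bace1, which can also cut EpCAM, by 0.54. Among gamma-secretase genes, Psen2 differed by -0.13, Ncstn by -0.34 and Aph1a by -0.39. Fhl2 differed by -0.33 and Ctnnb1, beta-catenin, by -0.16, with a median of 541 CPM in expressing cells and 513 CPM in negative cells. Over the whole list of 20 genes, 16 were kept, of which 3 were at +1 or more (against 4.54% of all genes) and 1 at -1 or less (against 8.53%), with a median of -0.14 against -0.05 for all genes kept.

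Of 5 genes known as targets of the intracellular domain, none was at +1 or more (against 4.54% of all genes) and 1 at -1 or less (against 8.53%). Myc had a median of 37.6 CPM (0 to 178) in expressing cells and 114 CPM (0 to 611) in negative cells, a difference of -1.67, opposite in sign to Bmyc. Ccnd1, cyclin D1, had medians of 278 CPM in expressing cells and 178 CPM in negative cells (0.50), and Ccna2, cyclin A2, of 475 CPM in expressing cells and 430 CPM in negative cells. The mean of Ccna2 nevertheless differed by -0.34, since its median and mean differ in sign.

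Epithelial junction genes were mostly higher in expressing cells. Of 27 kept, 8 were at +1 or more (against 4.54% of all genes) and 3 at -1 or less (against 8.53%). Above 0 lay 19 of the 27, against 4947 of all 10568 genes, and the list's median was 0.53. Among desmosomal genes Dsg2 differed by 1.53, Dsp by 1.51 and Dsc2 by 1.18, whereas Pkp2 (0.85) and Jup (0.65), which encode plaque proteins, stayed within 1. Ppl, which encodes periplakin, a protein also tied to desmosomes, went the other way (-1.37). Dsp, desmoplakin, had a median of 25.1 CPM (0 to 84.1) in expressing cells and 0 CPM (0 to 110) in negative cells, and was at 1 CPM in 10 of 17 expressing cells and 12 of 33 negative cells. Dsc2, a desmosomal cadherin, reached 1 CPM in 6 of 17 expressing and 5 of 33 negative cells and lay at 0.81, 0.99 and 0.93 without cells 14, 28 and 30.

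Genes of the tight junction and of cell polarity went both ways. Tjp3 (1.39), Crb3 (1.19, and 0.98 without cell 32), Pard6b (1.06) and Cgn (1.05) were higher, and the last pair fell short of 1 without any of 7 and of 20 cells, down to 0.80 for Pard6b without cell 17 and 0.81 for Cgn without cell 7. With chip number blocks as a term Crb3 came to 0.77 and Cgn to 0.81. Cldn2, a pore-forming claudin, had a median of 5.41 CPM (0 to 192) in expressing cells and 82.3 CPM (0 to 271) in negative cells, a difference of -2.47. Ocln, occludin, differed by -1.29. Cldn7 and Cldn2 thus differed in opposite directions.

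Keratins were higher by less than 1 and epithelial transcription factors went both ways. For comparison, 4.54% of all genes kept were at +1 or more and 8.53% at -1 or less, and 4947 of 10568 lay above 0. All 6 keratins kept lay above 0 and none past 1, with a median of 0.51, Krt8 at 0.51, Krt19 at 0.50 and Krt18 at 0.17. Krt8 had a median of 2781 CPM (1235 to 5478) in expressing cells and 1937 CPM (618 to 5051) in negative cells. Of 5 epithelial regulators kept, 1 was at +1 or more and 1 at -1 or less, with a median of 0.72. Klf4 differed by 1.19 (0.94 without cell 30), Elf3 by 0.72 and Klf5 by -0.87. Ehf differed by -1.11, and by -0.93 to -0.98 without cell 2, 3, 15, 21 or 58. Of 13 pancreatic and ductal transcription factors kept, none was past 1, with a median of -0.06.

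Genes of the mesenchymal list were mostly lower in Epcam-expressing cells, with vimentin near level. Of 12 kept, 5 were at -1 or less (against 8.53% of all genes) and none at +1 or more (against 4.54%). Below 0 lay 11 of the 12, against 5621 of all 10568 genes, and the list's median was -0.78. S100a4, a calcium-binding protein linked to motility, had a median of 111 CPM (0 to 825) in expressing cells, against 493 CPM (137 to 1222) in negative cells, a difference of -2.15. In S100a4 the expressing cell was the higher one in 12.5% of pairs. Fn1, fibronectin, had a median of 1.99 CPM (0 to 155) in expressing cells, against 45.1 CPM (0 to 387) in negative cells, a difference of -2.10.

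Twist2, a transcription factor that can drive epithelial-mesenchymal transition, was at 1 CPM in 3 of 17 expressing cells (17.6%, exact 95% interval 3.80% to 43.4%), against 22 of 33 negative cells (66.7%, 48.2% to 82.0%). Cdh2, N-cadherin, differed by -1.17 and Mmp14, a membrane-bound metalloprotease, by -1.25. Snai2 (-0.98) and Zeb1 (-0.44) stayed within 1. Vim, vimentin, had a median of 573 CPM (202 to 2355) in expressing cells and 669 CPM (204 to 1485) in negative cells, a difference of -0.27, and the highest value of all 50 cells belonged to cell 17, which also had the most Epcam. With gene counts per spike-in count as a term, 4 of the 12 were at -1 or less, against 525 of all 10568 genes, and the median was -0.58.

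Genes of the classical programme of human pancreatic cancer gave 3 of 6 kept at +1 or more (against 4.54% of all genes) and 1 at -1 or less (against 8.53%). With chip number blocks as a term 2 were at +1 or more, against 431 of all 10568 genes. Muc1, a membrane mucin, had a median of 429 CPM (95 to 1476) in expressing cells and 144 CPM (0 to 807) in negative cells, a difference of 1.5. Anxa10, an annexin of gastric epithelium, had a median of 108 CPM (0 to 657) in expressing cells and 26.7 CPM (0 to 269) in negative cells, a difference of 2.18. Lgals4, galectin-4, differed by 1.24, and by 0.94 without cell 50 or without cell 54, which hold its lowest values, and by 0.92 with chip number blocks as a term. Ceacam1, a cell adhesion molecule, went the other way with medians of 0.497 CPM in expressing and 72.3 CPM in negative cells (-1.80). Tff1, a trefoil peptide of gastric mucus that was below the filter, reached 1 CPM in 4 of 17 expressing cells and in 0 of 33 negative cells, an observation made after its values were seen. The basal-like list was split, with 3 of 10 kept at +1 or more (against 4.54% of all genes) and 3 at -1 or less (against 8.53%). Those at +1 or more were Scel (1.12), Serpinb5 (1.02, and 0.69 without cell 17) and Areg (1.01), and none of them was past 1 with chip number blocks as a term or with the split at Epcam above 0. Ptgs2, the inducible cyclooxygenase, was the lowest of these (-2.29), with a median of 0 CPM in expressing and 18.5 CPM in negative cells. Lamb3 of the basal-like list, also below the filter, reached 1 CPM in 6 of 17 expressing and 1 of 33 negative cells. It too was picked after its values were seen.

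Tetraspanins did not move as a family. Of 19 kept, 4 were at +1 or more (against 4.54% of all genes) and 4 at -1 or less (against 8.53%), with a median of -0.34. Beside Tspan1 and Tspan13, Cd81 (1.53) and Tspan15 (1.15) were higher, and beside Upk1b, Tspan4 (-1.63), Tspan14 (-1.15) and Cd63 (-1.07) were lower. Cd63, a lysosomal and exosomal tetraspanin, had a median of 293 CPM (54.7 to 922) in expressing cells and 587 CPM (263 to 1306) in negative cells, and lay between -0.93 and -0.98 without cell 17, 32, 37 or 41.

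The list of uroplakin, Ly6 and plasminogen genes had been drawn up with earlier results of these data known, and its direction is not independent of them. Of 10 kept, 5 were at -1 or less (against 8.53% of all genes) and 1 at +1 or more (against 4.54%), with a median of -1.24. Ly6e, a further Ly6 surface protein, had a median of 318 CPM (107 to 2066) in expressing cells, against 1718 CPM (489 to 2804) in negative cells, a difference of -1.91. Plau (-0.07), Plaur (-0.22) and Tm4sf4 (-0.22) were near level, and the member at +1 or more was Tm4sf20 (1.22, and 0.96 without cell 1).

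**Figure D5:**
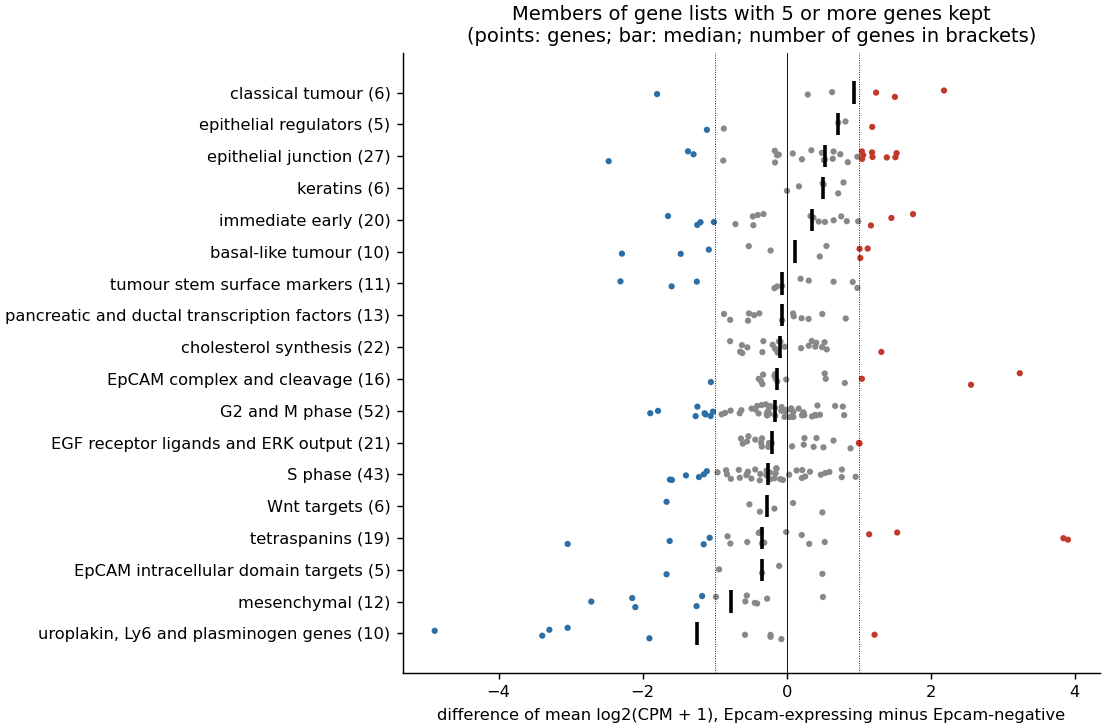
Difference of mean log2(CPM + 1), Epcam-expressing minus Epcam-negative, for each kept gene of 18 lists, 1 point a gene, with the list's median as a bar and dotted lines at -1 and +1. The medians run from 0.94 for the classical tumour list to -1.24 for the uroplakin, Ly6 and plasminogen list, and most lists hold genes on both sides of 0.

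Cell cycle and signalling lists differed less. Of all genes kept 4.54% were at +1 or more and 8.53% at -1 or less. None of 43 S phase genes was at +1 or more and 6 were at -1 or less (median -0.26), and of 52 genes of G2 and M phase none was at +1 or more and 8 at -1 or less (median -0.16). Both pairs of counts were the same with size factors in place of total counts, and both changed with the recovered RNA as a term. With gene counts per spike-in count as a term, S phase gave 2 at +1 or more and 3 at -1 or less. G2 and M phase gave 7 at +1 or more and 1 at -1 or less, with a median of 0.29. Of all 10568 genes, 750 were at +1 or more and 525 at -1 or less in that fit. No direction of the cell cycle lists can therefore be read. Top2a, topoisomerase II alpha, had a median of 83.8 CPM (0 to 706) in expressing cells and 248 CPM (0 to 947) in negative cells. Its difference of -1.14 came to -0.79 without cell 17 or cell 32. It was also short of -1 with gene counts per spike-in count or detected genes as a term. Of 21 genes of EGF receptor ligands and ERK output 2 were at +1 or more (Areg, 1.01, and Phlda1, 1.0) and none at -1 or less, and neither of the pair was at +1 with size factors in place of total counts.

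Immediate early genes, transcription factors and signalling genes that growth factors switch on at once, were divided. Jun differed by 1.75 and Fos by 1.45, with Fos at a median of 402 CPM (67.2 to 1901) in expressing cells and 248 CPM (0 to 1339) in negative cells. Cyr61 and Ctgf, both secreted targets of YAP, went opposite ways. Cyr61 differed by -1.65 and Ctgf by 1.17, or by 0.55 with chip number blocks as a term. Ier5 differed by -1.24. Of 20 kept, 3 were at +1 or more (against 4.54% of all genes) and 4 at -1 or less (against 8.53%). With gene counts per spike-in count as a term 6 of the 20 were at +1 or more and 2 at -1 or less. In that fit these were 750 and 525 of all 10568 genes. Of 11 kept in the list of tumour stem cell markers, 5 were above 0 and 6 below, against 4947 and 5621 of all genes kept. None was at +1 or more (against 4.54% of all genes) and 3 at -1 or less (against 8.53%), with a median of -0.06. Prom1, which encodes CD133, had a median of 0 CPM (0 to 105) in expressing cells and 57.3 CPM (0 to 332) in negative cells, a difference of -2.31. Aldh1a3 (-1.60) and Bmi1 (-1.25) were the others at -1 or less, and Msi2 (0.98), Nes (0.92) and Met (0.65) lay highest. Cd24a was near level (0.31), with medians of 299 CPM in expressing and 296 CPM in negative cells, as was Cd44 above. Of 22 cholesterol synthesis genes 1 was at +1 or more (against 4.54% of all genes) and none at -1 or less (against 8.53%). That gene was Mvd (1.31, and 0.57 with chip number blocks as a term). In the Wnt target list 1 of 6, Myc, was at -1 or less (against 8.53% of all genes) and none at +1 or more (against 4.54%).

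Markers of other cell types gave 3 genes above the filter. Cd14, a co-receptor also made by epithelial cells, had a median of 85.2 CPM (0 to 216) in expressing cells and 110 CPM (7.53 to 485) in negative cells, a difference of -1.10 that became -0.79 without cell 14 and -0.74 without cell 35. Egfl7, an endothelial secreted factor, was at 1 CPM in 10 of 17 expressing cells and 8 of 33 negative cells (1.65), while Pecam1, Cdh5 and Kdr were at 0 in all 50 cells. Prss2, a trypsinogen of acinar cells, was at 1 CPM in 5 of 17 expressing and 11 of 33 negative cells (-0.16). The summed level of the immune list ran from 0.808 to 216 CPM in expressing cells and from 7.62 to 485 CPM in negative cells, nearly all of it Cd14, and that of the fibroblast list from 0.196 to 1.66 CPM in expressing cells and from 0.136 to 104 CPM in negative cells.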

How the data were processed

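RNA of 62 single cells was amplified on the Fluidigm C1 chip and made into Nextera XT libraries, per the labels' protocols. The authors deposited 1 table of estimated counts, with gene symbols as rows. The submitters' processing notes name kallisto and mm9. Its version, its annotation and the step from transcripts to genes were not given in the sources used here. The table held 19112 gene rows and 65 spike-in rows, and 66.18% of values above 0 were whole within 1e-06. Symbols altered by table software were restored: 17942 matched as given, 1092 after restoring, and 78 stayed unmatched under the name in the table. No mitochondrially encoded gene had a row in the table used here.

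From the deposited estimated counts, left unrounded except for thinning, CPM was computed over gene rows alone and log2-transformed with a pseudocount of 1. Cells were kept with a spike-in share under 20% and split at 1 CPM of Epcam. Epcam itself was left out of the comparison. Genes at 1 CPM or more in at least 10 of the 50 cells were compared by the difference of mean log2(CPM + 1), which understates the change of genes near 0. Because all cells come from 1 culture, no p-value, standard error or set test was computed. Intervals of shares are exact Clopper-Pearson ones at 95% and speak of cell sampling alone. Doublets were not called. Gene counts ran from 2153900 to 12868800 per kept library.

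The 133 named genes are the 15 of largest difference in each direction, all kept genes of the EpCAM complex list, from each other of 23 lists the members past 1 and the 2 of highest mean level, and the 5 genes of highest and of lowest rho with Epcam. Some genes that this rule takes are not reported here. Any further gene in the text was picked with its values known. The split and the lists were chosen with earlier results of these data known. Alternatives were another pseudocount, filter and scaling, thinning to 2000000 counts, terms for detected genes, for gene counts per spike-in count and for chip number blocks, other Epcam thresholds, all 62 libraries, and leaving out each cell in turn. Promoters are RefSeq entries of GRCm38.p6, matched by symbol, so their coordinates belong to that build and not to mm9. The computations were tested on simulated counts. Python 3.11.15, numpy 2.4.6, pandas 2.3.3, scipy 1.17.1 and matplotlib 3.10.9 were used.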

Additional observations from a re-analysis of the deposited data

Results flagged for a closer look

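Among the 12 libraries set aside for a spike-in share of 20% or more, 2 had Epcam above the threshold of 1 CPM, and the other 10 had no Epcam count. Cell 56 had 348 CPM from 395 counts, and cell 8 had 2.28 CPM from 2 counts, fewer than the 3 counts that a count of 0 allows. The signal lies in libraries outside the comparison, whose gene counts ran from 112196 to 1133750. A median of 1940 genes was above 0 in these 12, against 9029 in the Epcam-expressing and 8814 in the Epcam-negative cells kept.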

How the results depend on the processing

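No paired analysis was possible because all libraries come from 1 culture and no number pairs a cell of 1 group with a cell of the other. The count of genes at +1 or more was 480, and became 1069 with a pseudocount of 0.1, 750 with gene counts per spike-in count as a term and 1969 over all 62 libraries. The count at -1 or less was 901, and became 1876, 525 and 207 under the same 3 settings. Under the other 9 alternatives the first count lay between 335 and 584 and the second between 690 and 1209. Leaving out 1 cell gave 453 to 549 and 748 to 1098 genes and a median over all genes of -0.09 to 0.00132. That median was -0.05, between -0.11 and 0.06 under the other alternatives, and 0.40 over all 62 libraries, where the added libraries hold far fewer counts.

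For named genes and lists, 2109 of 2134 alternative values moved by less than the spread between cells. That spread is wide for a change of a mean, and a changed filter cannot alter the difference of a single gene. The count is therefore no measure of stability. Of 22 that moved, 20 came from all 62 libraries and the others were Bmyc at 5.26 and Fam213b at 4.62 with a pseudocount of 0.1. Itga3 (0.13), Cd63 (0.10) and Nusap1 (0.13) turned sign over all 62 libraries. Of 96 named genes past 1, 28 came under 1 without some cell. Over all 62 libraries 31 of the 96 were not past 1, with the spike-in term 20, with Epcam above 0 17, with chip blocks 13 and with detected genes 13. With a pseudocount of 0.1, 36 moved by over 1.5 times, and over all 62 libraries 42. Medians of 5 of 21 lists turned sign with the spike-in term, among them G2 and M phase (0.29 against -0.16). Precision is limited by 17 and 33 cells of 1 culture, and by estimated counts that can share reads between related genes.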

Other observations

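Several genes outside the lists, chosen after their values were seen, were lower in Epcam-expressing cells at high levels. Spp1, which encodes the secreted phosphoprotein osteopontin, had a median of 4911 CPM (147 to 41136) in expressing cells, against 13668 CPM (4893 to 86975) in negative cells, a difference of -1.93 that ranged from -2.15 to -1.64 without any 1 cell. Cxcl5, a chemokine that attracts neutrophils, had a median of 115 CPM (0 to 1466) in expressing cells, against 353 CPM (0 to 4072) in negative cells, a difference of -1.88. Hif1a, the oxygen-regulated subunit of hypoxia-inducible factor, had a median of 52.4 CPM (0 to 265) in expressing cells, against 127 CPM (19.9 to 496) in negative cells, a difference of -1.75. Id2, an inhibitor of basic helix-loop-helix factors, differed by -2.04 and Id3 by -1.43. Ccnd2, cyclin D2, went the other way, with a median of 406 CPM (100.3 to 1815) in expressing cells and 156 CPM (0 to 639) in negative cells, a difference of 1.85.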
